A study of Mus musculus with 10 samples.

Results

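The peaks described here were more accessible in innate lymphoid cells (ILCs) that lacked both RORgt and RORa than in ILCs that lacked RORgt alone or RORgt together with T-bet. A peak belonged to them if all 3 RORgt-RORa-KO libraries lay above all RORgt-Tbet-KO and RORgt-KO libraries, and if the RORgt-RORa-KO mean was at least 0.8 above the mean of each of these groups on the log2 scale. The members were chosen by their accessibility values in these 3 groups. Of 36251 peaks outside the Y chromosome, 678 (1.87%) met this rule, and 1947 more had the same non-overlapping libraries with a smaller gap. Control was not used to choose them, so the members were then split by it. In 586 Control-low members the Control mean lay below the midpoint between the RORgt-RORa-KO mean and the higher of the other knockout means, and in 92 Control-high members it lay above.

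The libraries came from small intestinal lamina propria ILCs of C57BL/6 mice, and accessibility was measured by ATAC-seq, which marks open chromatin by the adapters that the Tn5 transposase leaves there. All 10 libraries, Control included, carried the tamoxifen-inducible Cre Id2creERT2+ and the red fluorescent reporter tdRFP+, and all mice received tamoxifen in the diet for several weeks. All 3 knockout groups also carried the same floxed allele for the loss of RORgt. RORgt-RORa-KO (n = 3) had Roraf/f in addition, RORgt-Tbet-KO (n = 2) had Tbx21f/f in addition, and RORgt-KO (n = 2) had no further floxed allele. Control (n = 3) had no floxed allele. Replicates were biological, with 1 intestine or 2 or 3 pooled ones per library; the sources used here do not give the age of the mice. Cre acts from the Id2 gene, which ILCs and other cells use. No group lost RORa alone, so loss of RORa and loss of RORa on top of RORgt cannot be told apart. Values are the log2 scaled read counts of the deposited table, coordinates refer to GRCm38, and each peak carries the name of the protein-coding gene closest to it, up to 50 kb away.

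RORgt is the nuclear receptor that defines group 3 ILCs. RORa, encoded by Rora, is its close relative and binds the same short DNA core, and it is required for group 2 ILCs and contributes to group 3 ILCs. T-bet, encoded by Tbx21, drives the type 1 programme of interferon-gamma, chemokines and cytotoxic molecules, and part of the natural cytotoxicity receptor-bearing group 3 ILCs express it.

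The members' own peak sequences were not used here, but 13 RefSeq promoter windows (GRCm38.p6, 250 bases before to 50 after a coding gene's start) of 12 genes overlapped 12 members. Those of Ccl3, Ctla2a, Fasl and Shc1 are shown because the members over them are described further on. Capitals mark matches to the ROR core AGGTCA, the RUNX core TGTGGT, the AP-1 letters TGANTCA or the STAT letters TTCNNNGAA, searched on both strands; they are descriptions of the letters only. The Ccl3 window (chr11:83649329-83649628, minus strand), wholly inside its member, held AGGTCA and TGTGGT.
Ccl3: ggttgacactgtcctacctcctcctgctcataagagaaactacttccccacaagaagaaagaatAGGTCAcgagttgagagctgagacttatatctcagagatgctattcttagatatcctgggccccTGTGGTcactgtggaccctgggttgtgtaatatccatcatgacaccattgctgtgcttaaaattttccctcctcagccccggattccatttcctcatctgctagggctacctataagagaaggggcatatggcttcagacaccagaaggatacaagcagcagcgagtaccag
The Ctla2a window (chr13:60936517-60936816, minus strand), also wholly inside its member, held an AP-1 and a STAT match; Ctla2a has close copies in the genome, so its reads are uncertain.
Ctla2a: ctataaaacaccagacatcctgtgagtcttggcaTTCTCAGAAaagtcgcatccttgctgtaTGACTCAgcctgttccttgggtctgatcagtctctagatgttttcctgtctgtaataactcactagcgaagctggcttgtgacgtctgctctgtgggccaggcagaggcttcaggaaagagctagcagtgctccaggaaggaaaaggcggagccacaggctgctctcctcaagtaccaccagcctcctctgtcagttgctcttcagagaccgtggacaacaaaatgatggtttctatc
The Fasl window (chr1:161788446-161788745, minus strand) overlapped its member by 268 bases and held none of these letters.
Fasl: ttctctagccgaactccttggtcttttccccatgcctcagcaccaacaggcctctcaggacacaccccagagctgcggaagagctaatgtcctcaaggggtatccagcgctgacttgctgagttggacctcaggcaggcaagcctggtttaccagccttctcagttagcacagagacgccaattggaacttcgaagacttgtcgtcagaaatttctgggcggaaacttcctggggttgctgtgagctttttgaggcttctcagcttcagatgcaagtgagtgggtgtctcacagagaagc
The Shc1 window (chr3:89421371-89421670, plus strand) overlapped its member by 210 bases and held an AP-1 match.
Shc1: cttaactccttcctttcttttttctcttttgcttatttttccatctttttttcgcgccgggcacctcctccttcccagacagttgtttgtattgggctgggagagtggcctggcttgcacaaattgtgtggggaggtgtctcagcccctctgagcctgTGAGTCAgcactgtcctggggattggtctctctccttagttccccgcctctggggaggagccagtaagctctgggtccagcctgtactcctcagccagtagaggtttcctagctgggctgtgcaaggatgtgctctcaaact
Over the 13 windows, AP-1 letters occurred in 4, against 7.04% of 21045 coding promoter windows and 4.26% of the 10115 that overlapped any peak. AGGTCA occurred in 2 of 13 (14.6% of all windows and 11.1% of those over a peak), TGTGGT in 3 of 13 (14.7% and 12%), STAT letters in 2 of 13 (7.76% and 6.42%), and the T-box letters AGGTGTGA (1.16% and 0.791%) and ETS letters ACTTCCGG (5.2% and 9.68%) in none. Of the 13 windows, 2 belonged to Ctla2a and overlap each other.

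Members were weakly accessible outside RORgt-RORa-KO. Their median value was 5.57, 5.82 and 5.32 in the RORgt-RORa-KO libraries, 4.16 and 4.20 in RORgt-Tbet-KO, 4.53 and 4.35 in RORgt-KO, and 4.18, 4.37 and 4.38 in Control. Over all peaks the median was 5.90 to 6.03 in every library, so a typical member stayed under the typical peak even where it was most open. In recovered reads, the median member held 34, 32 and 44.5 in RORgt-RORa-KO, 19 and 22 in RORgt-Tbet-KO, 19 and 13 in RORgt-KO, and 14, 16 and 13 in Control. No member had 3 reads or fewer in any RORgt-RORa-KO library. The rule fixed the gap between RORgt-RORa-KO and the other knockouts; it had a median of 0.99 and a maximum of 2.90, was at least 1 in 325 members and at least 1.5 in 50. Just inside the limit of 0.8 lay peaks at Frmd4b (0.8002), Neu3 (0.8006) and Pou2f1 (0.8007), and just outside lay peaks at Sec11a (0.7997) and Sema3c (0.7996) and a peak on chromosome 3 (0.7997) with no gene within 50 kb.

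The 3 RORgt-RORa-KO libraries did not share the pattern evenly. Replicate 2 was the highest of the 3 in 409 members, and replicate 3 the lowest in 421. This order ran against sequencing depth, since reads in peaks were 2825693, 2271585 and 4733829 in replicates 1, 2 and 3. Other peaks of low level moved the same way: among peaks that were not members and averaged 4 to 5, the medians were 4.66, 4.73 and 4.37 in RORgt-RORa-KO, 4.44 and 4.50 in RORgt-Tbet-KO, 4.53 and 4.65 in RORgt-KO, and 4.54, 4.69 and 4.76 in Control. The part of depth in the members' levels was not tested. With every library thinned to the same number of reads the rule chose 720 peaks, of which 486 were among the 678 members.

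Peaks were also chosen without 1 library, which was then read in them. The libraries on the other side of the comparison were still chosen by the rule, which raises the shares that follow, so they are a description only. Of 782 peaks chosen without RORgt-RORa-KO replicate 1, 87.3% had it above all RORgt-Tbet-KO and RORgt-KO libraries, against 25.8% of all peaks. Without replicate 2 the share was 85.0% of 607 peaks, against 30.7% of all peaks. Without replicate 3 it was 58.1% of 1462 peaks, against 21.3% of all peaks. Replicate 3 lay in the chosen peaks at a median of 0.39 above the higher of the other knockout means. On the other side, 93.5% and 93.8% of peaks chosen without RORgt-Tbet-KO replicate 1 or 2 had that library below every RORgt-RORa-KO library. Over all peaks these shares were 26.9% and 27.1%. Without RORgt-KO replicate 1 or 2 the shares were 73.8% and 76.7% of the chosen peaks, against 23.7% and 27.3% of all peaks. The shares were lower for RORgt-RORa-KO replicate 3 and for the RORgt-KO libraries than for the others.

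**Figure D1:**
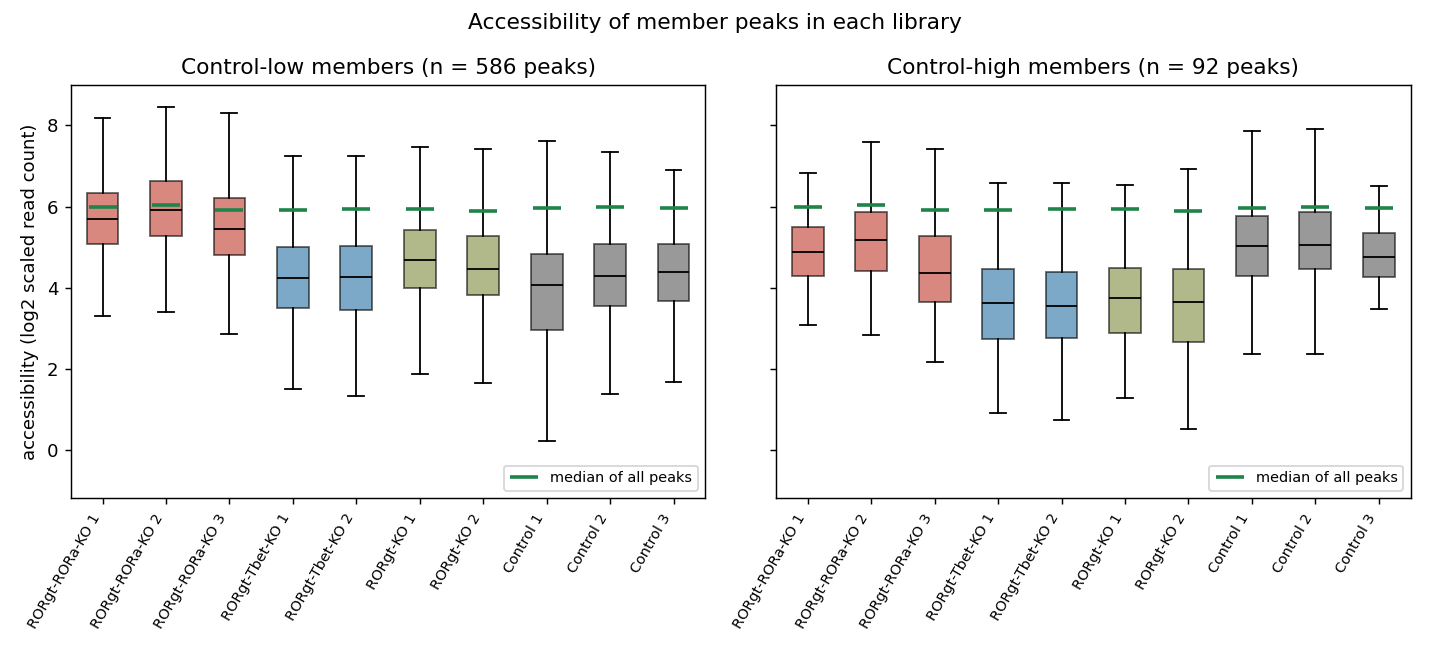
Boxes give the median and quartiles of the accessibility (log2 scaled read count) of the 586 Control-low members (left) and the 92 Control-high members (right) in each of the 10 libraries; whiskers reach 1.5 times the interquartile range, points beyond them are not drawn, and green dashes mark the median of all 36251 peaks. Control libraries lie with RORgt-Tbet-KO and RORgt-KO on the left and with RORgt-RORa-KO on the right, and the split largely imposes both placements.

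Against Control, which the rule did not use, most members were more open in RORgt-RORa-KO. The 3 Control libraries all lay below the 3 RORgt-RORa-KO libraries in 498 members (73.5%, against 19.0% of all peaks), and all above them in 13 (20.4% of all peaks). The median difference from Control was 1.36 in RORgt-RORa-KO, −0.09 in RORgt-Tbet-KO and 0.26 in RORgt-KO, against 0.02, 0.01 and 0.02 over all peaks. In limma's test adjusted over all 36251 peaks, 432 members were higher in RORgt-RORa-KO than in Control (15.1% of all peaks) and 6 lower (16.1%). In RORgt-Tbet-KO 43 were higher (11.3%) and 67 lower (11.3%), and in RORgt-KO 71 were higher (5.19%) and 24 lower (7.12%). The RORgt-RORa-KO libraries had been chosen to be high here and the others to be low, so these counts describe the members and the p-values below share that choice. In Control-low members the rule and the split also fixed RORgt-RORa-KO above Control. Their p-values for that contrast are therefore a description and no test of its direction. The 3 contrasts also share the Control libraries. Counts in RORgt-Tbet-KO and RORgt-KO rest on 2 libraries each and moved when 1 was left out: the 43 higher became 15 and 22, and the 67 lower 20 and 38, without RORgt-Tbet-KO replicate 1 or 2, while the 71 higher became 21 and 42, and the 24 lower 14 and 9, without RORgt-KO replicate 1 or 2. Leaving out Control replicate 3 gave 69 in place of 43, Control replicate 2 gave 42 in place of 67 and 13 in place of 24, and Control replicate 1 gave 15 in place of 24.

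Among the members 353 were called higher than Control in RORgt-RORa-KO and in no other knockout (6.43% of all peaks), 36 also in RORgt-KO (1.28%), 8 also in RORgt-Tbet-KO (3.9%), and 35 in all 3 knockouts (3.54%). The remaining 246 were not called higher in any knockout (80.8%); they comprised 154 Control-low members and all 92 Control-high members. RORgt-RORa-KO was chosen to be high and the others to be low, so nothing is read from these counts about where loss of RORa alone would act. A miss at the threshold does not show that a knockout equalled Control.

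**Figure D2:**
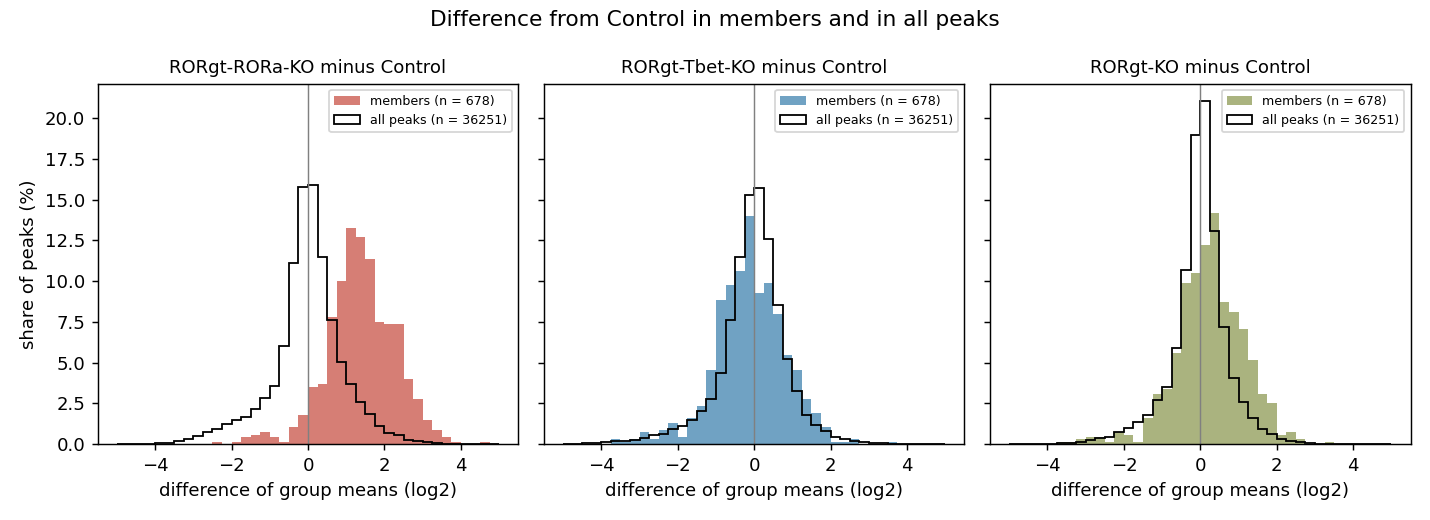
Histograms give the share of peaks (%) by the difference of the group mean from the Control mean (log2) for RORgt-RORa-KO, RORgt-Tbet-KO and RORgt-KO; filled bars are the 678 members and the black line all 36251 peaks. Members sit to the right of 0 in RORgt-RORa-KO, with a median of 1.36, and around 0 in RORgt-Tbet-KO (−0.09) and RORgt-KO (0.26).

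Members stood mostly away from promoters. A gene end was within 1 kb of only 38 (5.61%), against 29.9% of all peaks, while 297 (43.8%) lay inside a gene (39.1%), 203 (29.9%) between genes within 50 kb of one (20.9%), and 140 (20.6%) farther out (10.1%). Of 657 members with a promoter table entry for their chromosome, 21 (3.20%) came within 1 kb of a coding start, against 26.3% of all such peaks, and the median distance was 49582 bp against 18979 bp. They were also shorter, with a median of 316.5 bp against 480 bp. Because members are weakly accessible, all peaks are an unlike comparison for position and length. The part of level in these differences was not tested. A neighbouring peak was a member for 78 (11.5%), against 3.65% over all peaks. The share of peaks that were members ran from 1.21% on chromosome 7 to 2.86% on chromosome 16. No member was assigned to Rora, Tbx21 or Id2, and the 538 members with a gene within 50 kb named 483 genes.

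**Figure D3:**
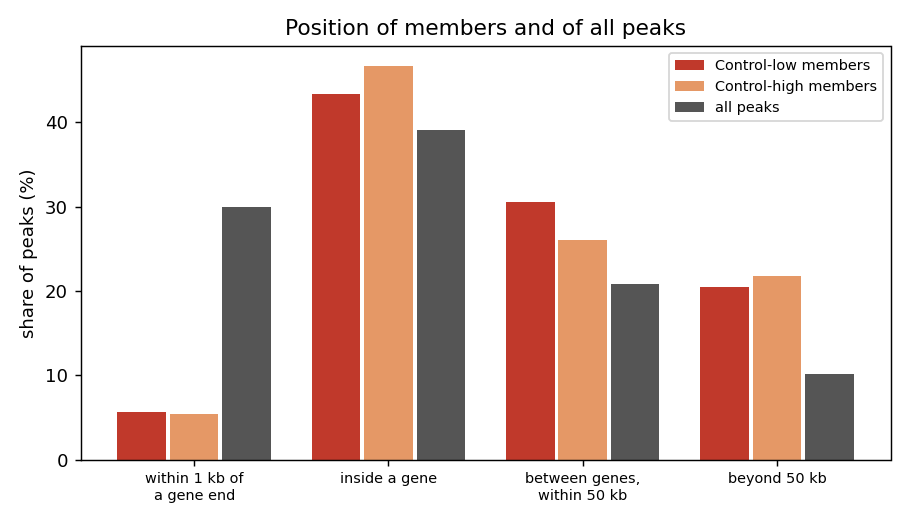
Bars give the share of peaks (%) by position relative to protein-coding genes for the 586 Control-low members, the 92 Control-high members and all 36251 peaks. Gene ends hold 5.63% of Control-low and 5.43% of Control-high members, against 29.9% of all peaks, and distances beyond 50 kb hold 20.5% and 21.7%, against 10.1%.

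Genes of type 1 and cytotoxic lymphocytes held 12 of the Control-low members. Of 86 peaks of the type 1 and natural cytotoxicity receptor list, 9 (10.5%, against 1.87% of all peaks) were members, at Il12rb2 (3), Ccl3 (2), Xcl1 (2), Ccl4 and Ncr1. Of 58 peaks of the cytotoxic and killer receptor list, 3 (5.17%) were members, at Fasl (2) and Tnfsf10. Over all peaks of the type 1 list, 36 rose and 9 fell in RORgt-RORa-KO against Control, 16 rose and 10 fell in RORgt-Tbet-KO, and 19 rose and 3 fell in RORgt-KO, with a median change of 0.50 in RORgt-RORa-KO beside 0.02 over all peaks. The share that rose in RORgt-RORa-KO was 41.9% (15.1% of all peaks) and the share that fell 10.5% (16.1%). In RORgt-Tbet-KO 18.6% rose (11.3% of all peaks) and 11.6% fell (11.3%), and in RORgt-KO 22.1% rose (5.19%) and 3.49% fell (7.12%). In the cytotoxic list 28 of 58 peaks rose and 1 fell in RORgt-RORa-KO, 16 rose and 5 fell in RORgt-Tbet-KO, and 11 rose and 3 fell in RORgt-KO; in RORgt-RORa-KO these were 48.3% and 1.72%, beside the same shares of all peaks. A larger share of cells with an open peak and a more open peak in each cell cannot be told apart in these bulk libraries.

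Fasl encodes the ligand by which cytotoxic lymphocytes kill through the receptor Fas. Its member 5149 bp from the gene (chr1:161774831-161775542) read 7.61, 7.39 and 7.66 in RORgt-RORa-KO, 5.98 and 5.95 in RORgt-Tbet-KO, 6.33 and 5.78 in RORgt-KO, and 5.28, 4.96 and 5.63 in Control. The RORgt-RORa-KO libraries stood above the other knockouts, as the rule demands, and above every Control library. The difference from Control, its direction fixed by the rule and the split, was 2.27 (SE 0.24, limma adjusted p = 2.71e-08). The second Fasl member covers the promoter printed above (chr1:161788162-161788713) and differed from Control by 1.31 (SE 0.36, limma adjusted p = 0.00639). Tnfsf10 encodes TRAIL, another death ligand. Its member inside the gene (chr3:27330785-27331076) read 5.73, 6.07 and 5.49 in RORgt-RORa-KO, 2.72 and 3.44 in RORgt-Tbet-KO, 4.81 and 4.46 in RORgt-KO, and 4.07, 4.62 and 4.58 in Control. It was above Control in RORgt-RORa-KO (1.34, SE 0.39, limma adjusted p = 0.00855). RORgt-Tbet-KO was below Control, with both libraries under every Control library (−1.34, SE 0.43). The rule chose RORgt-Tbet-KO to be low here, so its difference from Control is a description with no test.

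The granzyme A gene Gzma, a cytotoxic protease gene, lies inside the larger gene Cdc20b, and 4 members assigned to Cdc20b surround it at 22546, 5943, 918 and 3868 bp. The member at 918 bp (chr13:113101899-113102107) read 5.24, 4.40 and 5.37 in RORgt-RORa-KO, 2.72 and 1.33 in RORgt-Tbet-KO, 2.29 and 3.97 in RORgt-KO, and 2.37, 3.18 and 2.68 in Control. All 4 rose against Control in RORgt-RORa-KO, by 2.26 to 2.95 (limma adjusted p = 0.00015 to 0.00739), and none passed the test in RORgt-Tbet-KO or RORgt-KO. At the member 5943 bp away, which rose the most, Control replicate 2 held 0 reads. Cdc20b had 9 peaks in all. The Ctla2a promoter member, named after its values were seen (chr13:60936469-60937036), read 7.10, 7.64 and 6.74 in RORgt-RORa-KO, 6.47 and 6.05 in RORgt-Tbet-KO, 6.04 and 6.17 in RORgt-KO, and 4.70, 5.02 and 5.0 in Control. Ctla2a encodes a cysteine protease inhibitor found in activated lymphocytes, and the peak rose over Control in every knockout, by 2.25 in RORgt-RORa-KO (SE 0.25, limma adjusted p = 8.35e-08).

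The chemokine genes Ccl3 and Ccl4, whose products recruit leukocytes, lie side by side on chromosome 11 and held 3 members. The Ccl3 promoter peak (chr11:83649197-83649688) read 6.04, 5.14 and 6.20 in RORgt-RORa-KO, 2.91 and 3.20 in RORgt-Tbet-KO, 4.61 and 3.97 in RORgt-KO, and 0.37, 3.18 and 4.85 in Control. The Ccl4 member (chr11:83662124-83662719) read 6.04, 5.63 and 6.18 in RORgt-RORa-KO, 2.23 and 2.92 in RORgt-Tbet-KO, 4.61 and 4.65 in RORgt-KO, and 0.22, 3.54 and 4.00 in Control. Both peaks were most open in RORgt-RORa-KO and showed wide spread in Control, where replicate 1 was nearly empty and replicate 3 was the highest. Against Control they rose by 2.99 (SE 0.68, limma adjusted p = 0.00108) and 3.36 (SE 0.64, limma adjusted p = 0.00018). The RORgt-Tbet-KO libraries lay below the RORgt-KO libraries at both, a difference that did not pass the test (limma adjusted p = 0.58 and 0.24).

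Xcl1, the chemokine that attracts cross-presenting dendritic cells, had members 10134 and 18083 bp from the gene. The farther one (chr1:164953605-164953947) read 6.66, 6.88 and 6.95 in RORgt-RORa-KO, 5.23 and 5.50 in RORgt-Tbet-KO, 5.53 and 5.70 in RORgt-KO, and 3.37, 3.69 and 3.85 in Control. RORgt-Tbet-KO and RORgt-KO lay between RORgt-RORa-KO and Control, without overlap. The rise over Control was 3.19 in RORgt-RORa-KO (SE 0.29, limma adjusted p = 2.62e-09), 1.73 in RORgt-Tbet-KO (limma adjusted p = 0.000324) and 1.98 in RORgt-KO (limma adjusted p = 0.00013).

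Il12rb2, a chain of the interleukin-12 receptor, and Il23r, a chain of the interleukin-23 receptor, are neighbours on chromosome 6. The Il12rb2 members were singled out after their values were seen. The strongest of them (chr6:67367869-67368223) read 6.29, 6.28 and 6.57 in RORgt-RORa-KO, 5.16 and 5.24 in RORgt-Tbet-KO, 5.14 and 5.11 in RORgt-KO, and 2.96, 0.37 and 1.68 in Control. It rose over Control by 4.71 in RORgt-RORa-KO (SE 0.47, limma adjusted p = 1.42e-08), by 3.53 in RORgt-Tbet-KO (limma adjusted p = 2.03e-05) and by 3.46 in RORgt-KO (limma adjusted p = 5.19e-05). The Control values rest on few reads and replicate 2 was nearly empty, so the sizes of these rises are uncertain. The Il23r member, 7288 bp from Il23r and 38915 bp from Il12rb2 (chr6:67415208-67415644), read 6.77, 7.07 and 6.66 in RORgt-RORa-KO, 5.53 and 5.14 in RORgt-Tbet-KO, 5.64 and 5.82 in RORgt-KO, and 4.07, 3.54 and 4.48 in Control. Its rise over Control was 2.80 in RORgt-RORa-KO (SE 0.30, limma adjusted p = 3.49e-08) and also passed in RORgt-Tbet-KO (limma adjusted p = 0.00527) and RORgt-KO (limma adjusted p = 0.000844). At these peaks, as at the Xcl1 one, accessibility was above Control in every knockout, and the rule placed RORgt-RORa-KO highest.

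Markers of T cells, which share these genes, were read beside them. Of 11 T cell markers, 6 named a peak, and Cd3g, Cd8a, Cd8b1, Cd6 and Trac named none. Scaled to 1000000 reads in peaks, the 13 marker peaks summed to 308 to 353 in RORgt-RORa-KO, 294 to 311 in RORgt-Tbet-KO, 267 to 269 in RORgt-KO and 258 to 291 in Control. Of these 13 peaks 5 (38.5%, and 15.1% of all peaks) rose and 3 (23.1%, and 16.1% of all peaks) fell in RORgt-RORa-KO against Control. In RORgt-Tbet-KO 3 rose and 3 fell, and in RORgt-KO 1 rose and 2 fell. The share that rose in RORgt-RORa-KO was near the 41.9% of the type 1 list, though it rests on few peaks. The part of T cells in the type 1 result was not tested. The member among them was at Cd40lg, the CD40 ligand gene (chrX:57216248-57216804), with 5.98, 6.28 and 6.07 in RORgt-RORa-KO, 3.82 and 3.07 in RORgt-Tbet-KO, 4.53 and 5.11 in RORgt-KO, and 4.07, 3.54 and 3.68 in Control (2.35 above Control in RORgt-RORa-KO, SE 0.38, limma adjusted p = 2.45e-05). Another 3 members lay in antigen receptor loci. All 8 ILC markers named peaks, which summed on the same scale to 1449 to 1691 in RORgt-RORa-KO, 1759 to 1815 in RORgt-Tbet-KO, 1437 to 1510 in RORgt-KO and 1443 to 1505 in Control, and none of these peaks was a member.

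**Figure D4:**
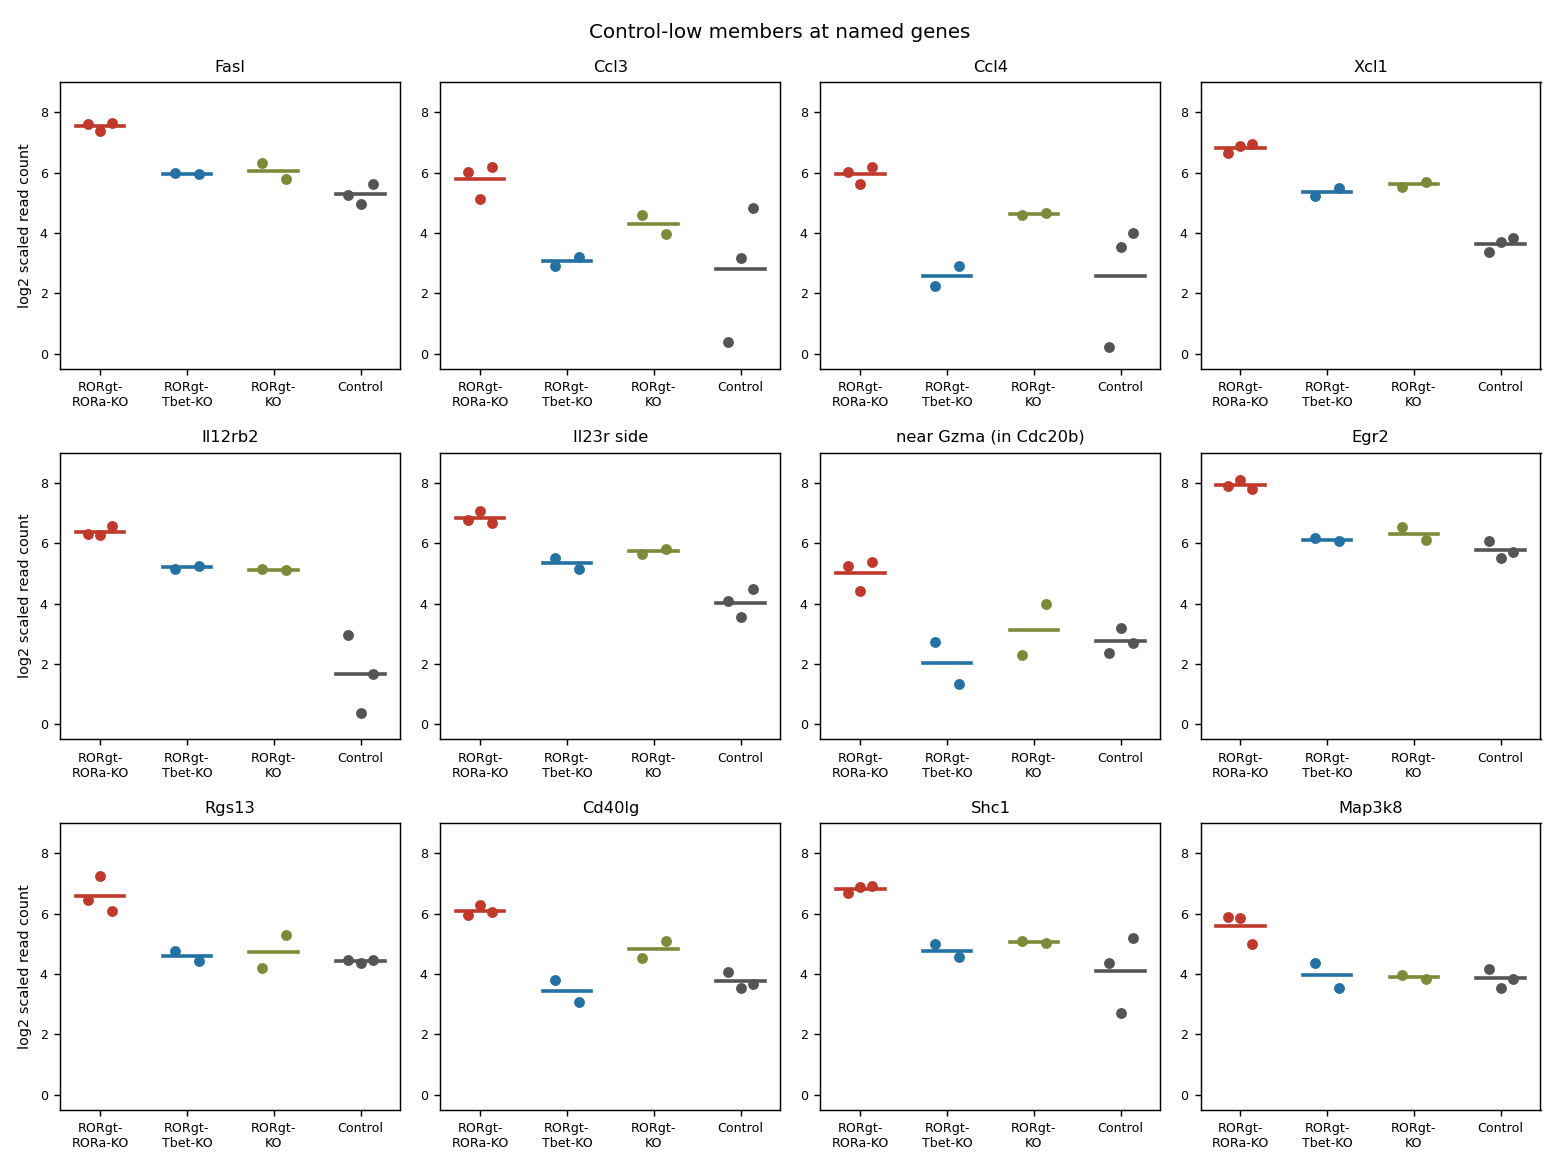
Points give the log2 scaled read count in each library and lines the group means for 1 Control-low member at each of 12 genes (the member with the largest gap, and for Cdc20b the member nearest Gzma). The RORgt-RORa-KO points lie above all RORgt-Tbet-KO and RORgt-KO points in each panel, as the rule demands; Control lies well under the other knockouts at Xcl1, Il12rb2 and Il23r and level with them at Rgs13 and Map3k8.

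Transcription factor genes were the next named Control-low members. Egr2, a transcription factor gene induced by antigen receptor and cytokine signals, had a member 30316 bp away (chr10:67503380-67504153). It read 7.89, 8.09 and 7.79 in RORgt-RORa-KO, 6.18 and 6.07 in RORgt-Tbet-KO, 6.53 and 6.11 in RORgt-KO, and 6.07, 5.50 and 5.72 in Control. RORgt-RORa-KO was above Control by 2.16 (SE 0.21, limma adjusted p = 1.21e-08), while RORgt-Tbet-KO and RORgt-KO did not pass (limma adjusted p = 0.30 and 0.14). Of 269 peaks of the ILC transcription factor list, 8 (2.97%) were members. They were at Prdm1 (3 of 18 peaks), the gene of Blimp-1, at Ikzf2 (3 of 21), the gene of Helios, at Bach2 (1 of 18), a repressor of effector differentiation, and at Irf8. In that list 66 peaks (24.5%, and 15.1% of all peaks) rose and 48 (17.8%, and 16.1% of all peaks) fell in RORgt-RORa-KO against Control. Against Control, Prdm1 members at chr10:44400547-44401069 and chr10:44403428-44403633 rose by 1.26 (SE 0.25, limma adjusted p = 0.000309) and 1.71 (SE 0.40, limma adjusted p = 0.00161), and the third did not pass (0.85, SE 0.35, limma adjusted p = 0.066). The Ikzf2 member at chr1:69555655-69556048 passed in RORgt-RORa-KO (1.84, SE 0.41, limma adjusted p = 0.000954). That at chr1:69703583-69703764 passed (limma adjusted p = 0.0418) but lost the call in 9 of 19 settings. The third Ikzf2 member did not pass (limma adjusted p = 0.196). The Bach2 member read 5.57, 5.52 and 5.24 in RORgt-RORa-KO, 4.00 and 3.99 in RORgt-Tbet-KO, 4.37 and 3.65 in RORgt-KO, and 4.76, 4.46 and 4.48 in Control, and its difference from Control did not pass (limma adjusted p = 0.08).

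A cluster of genes for regulators of G-protein signalling on chromosome 1 held 5 members. Rgs1 restrains chemokine receptor signalling, and Rgs2 and Rgs13, which lies between Rgs1 and Rgs2, belong to the same family. The strongest, 7552 bp from Rgs13 (chr1:144184924-144185385), read 6.46, 7.24 and 6.09 in RORgt-RORa-KO, 4.77 and 4.45 in RORgt-Tbet-KO, 4.19 and 5.29 in RORgt-KO, and 4.46, 4.37 and 4.48 in Control. The 3 Rgs13 members rose over Control by 2.16 (limma adjusted p = 2.02e-05), 2.92 (limma adjusted p = 3.55e-06) and 1.06 (limma adjusted p = 0.00664), and the Rgs1 member rose by 1.75 (limma adjusted p = 0.00157). The Rgs2 member was Control-high, with 4.88, 4.14 and 4.37 in RORgt-RORa-KO, 1.50 and 2.33 in RORgt-Tbet-KO, 2.61 and 2.97 in RORgt-KO, and 3.69, 3.37 and 4.26 in Control. In the homing, egress and residency list, 5 of 87 peaks (5.75%) were members, at Rgs1, Rgs2, Cd69, Itgb1 and S1pr1; over the list 27 peaks (31.0%, and 15.1% of all peaks) rose and 10 (11.5%, and 16.1% of all peaks) fell in RORgt-RORa-KO against Control.

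The other named Control-low members were at single genes. Those at Adgb, Bcl2, Ergic1, Peak1, Sh3pxd2a and Sp100 had gaps of 1.60 to 1.78. Shc1 encodes an adaptor of receptor tyrosine kinase signalling, and its promoter member (chr3:89421461-89421851) was its only peak. That peak read 6.69, 6.88 and 6.92 in RORgt-RORa-KO, 5.0 and 4.55 in RORgt-Tbet-KO, 5.09 and 5.04 in RORgt-KO, and 4.37, 2.69 and 5.20 in Control, a rise of 2.74 over Control (SE 0.41, limma adjusted p = 6.25e-06). Map3k8, the gene of the kinase Tpl2, had a member at 5.88, 5.86 and 5.01 in RORgt-RORa-KO, 4.37 and 3.55 in RORgt-Tbet-KO, 3.98 and 3.82 in RORgt-KO, and 4.18, 3.54 and 3.85 in Control (1.73 above Control in RORgt-RORa-KO, SE 0.42, limma adjusted p = 0.00214). Phldb2 held 4 members, 3 Control-low and 1 Control-high; the most open (chr16:45889330-45889959) rose over Control by 2.47 in RORgt-RORa-KO (SE 0.22, limma adjusted p = 1.35e-09) and also passed in RORgt-Tbet-KO (limma adjusted p = 0.000105) and RORgt-KO (limma adjusted p = 5.17e-05). Jak1, the kinase shared by many cytokine receptors, held both members of the 144 cytokine receptor and JAK-STAT peaks (1.39%, beside 1.87% of all peaks), 1 Control-low and 1 Control-high.

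The remaining lists are given beside the 1.87% of all peaks that were members. The type 3 effector list had 2 of 106 peaks (1.89%), the Il23r member and a peak at Ahr, the aryl hydrocarbon receptor gene; 23 of its peaks (21.7%) rose and 23 (21.7%) fell in RORgt-RORa-KO against Control, beside 15.1% and 16.1% of all peaks. The LTi-like list had 2 of 76 (2.63%), at Tnfsf4 and Tnfrsf11a, the clock and REV-ERB/ROR response list 1 of 69 (1.45%), at Tef, and the immediate early list 1 of 85 (1.18%), at Egr2. The type 2 list (39 peaks) and the REV-ERB/ROR lipid list (66 peaks) had none. Of the other cell type markers, Pdgfra in the stromal and endothelial list (19 peaks) had 1 member, and the B cell, myeloid, mast cell, epithelial, neural and housekeeping lists (15, 12, 4, 11, 5 and 33 peaks) had none.

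RORgt-Tbet-KO and RORgt-KO both had to lie under RORgt-RORa-KO, but the rule did not set their order. The RORgt-Tbet-KO mean was the lower in 459 of 678 members, against 48.5% of all peaks. Both RORgt-Tbet-KO libraries lay below both RORgt-KO libraries in 242 members (25.5% of all peaks) and above them in 39 (28.2%). Members are weakly accessible, so all peaks are an unlike comparison. Non-member peaks averaging 4 to 5 also had lower medians with RORgt-Tbet-KO (4.44, 4.50) than with RORgt-KO (4.53, 4.65). Sequencing was deeper for RORgt-Tbet-KO (4580787, 5047436 reads in peaks) than for RORgt-KO (3388680, 2630478). The part of level and depth in this order was not tested. In limma's test 21 members were lower in RORgt-Tbet-KO than in RORgt-KO (0.965% of all peaks) and 0 higher (0.179%) and all 21 were Control-low. The count of 21 was 13 without RORgt-RORa-KO replicate 1, 6 and 13 without RORgt-Tbet-KO replicate 1 or 2, and 1 and 10 without RORgt-KO replicate 1 or 2. The smallest p belonged to a peak at Dock9, a guanine nucleotide exchange factor gene (chr14:121829833-121830510). It read 7.53, 7.91 and 7.64 in RORgt-RORa-KO, 4.87 and 5.07 in RORgt-Tbet-KO, 7.20 and 6.53 in RORgt-KO, and 5.80, 6.20 and 5.72 in Control. Against Control, RORgt-RORa-KO and RORgt-KO passed as higher here. RORgt-Tbet-KO lay below Control, where the rule had chosen it to be low. RORgt-Tbet-KO was below RORgt-KO (log2 difference −1.90, SE 0.28, limma adjusted p = 0.000234). At a peak of Ccdc6 (chr10:70133183-70133615) RORgt-RORa-KO and RORgt-KO also passed as higher than Control, with 7.42, 7.28 and 7.12 in RORgt-RORa-KO, 4.08 and 4.60 in RORgt-Tbet-KO, 6.71 and 6.08 in RORgt-KO, and 4.46, 4.28 and 5.43 in Control (RORgt-Tbet-KO minus RORgt-KO −2.05, SE 0.37, limma adjusted p = 0.00186). These genes were named after their values were seen.

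Control-high members had about the same level in RORgt-RORa-KO as in Control and were lower in the other knockouts. Their median was 4.88, 5.18 and 4.37 in the RORgt-RORa-KO libraries, 3.61 and 3.55 in RORgt-Tbet-KO, 3.74 and 3.65 in RORgt-KO, and 5.02, 5.04 and 4.76 in Control. The median difference from Control was 0.12 in RORgt-RORa-KO, −1.10 in RORgt-Tbet-KO and −1.07 in RORgt-KO, where the rule and the split fixed the sign in RORgt-Tbet-KO and RORgt-KO. All 3 Control libraries lay above all RORgt-Tbet-KO and RORgt-KO libraries in 64 of the 92, beside 15.4% of all peaks. The rule and the split largely impose this order, and nothing is read from it.

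Fbp1, which encodes the gluconeogenic enzyme fructose bisphosphatase, had the most accessible named peak of this kind (chr13:62879792-62880719), its only peak. It read 8.15, 8.46 and 7.41 in RORgt-RORa-KO, 6.30 and 6.03 in RORgt-Tbet-KO, 6.53 and 6.92 in RORgt-KO, and 7.76, 7.92 and 7.26 in Control. Its difference from Control was −1.48 in RORgt-Tbet-KO (SE 0.25) and −0.92 in RORgt-KO (SE 0.25). The rule and the split fixed the direction of these differences, so they are a description with no test. In RORgt-RORa-KO the difference from Control did not pass (0.36, SE 0.23, limma adjusted p = 0.24). A peak 26684 bp from Susd1 (chr4:59286984-59287518) behaved alike, with 6.51, 7.03 and 6.80 in RORgt-RORa-KO, 5.30 and 5.70 in RORgt-Tbet-KO, 5.68 and 5.41 in RORgt-KO, and 6.66, 6.71 and 6.41 in Control. Its difference from Control was −1.09 in RORgt-Tbet-KO and −1.05 in RORgt-KO (SE 0.26 for each). The Snx29 member differed from Control by −1.785 in RORgt-Tbet-KO and by −0.991 in RORgt-KO. The difference between these knockouts did not pass (limma adjusted p = 0.52). Peaks at Tet2, which encodes a DNA demethylating enzyme, and at Prlr, the prolactin receptor gene, did not pass against Control in RORgt-RORa-KO.

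In 6 Control-high members RORgt-RORa-KO also fell below Control, to a level between Control and the other knockouts. Tnfrsf11a, which encodes RANK, the receptor of the LTi-cell ligand RANKL, had 4.66, 4.52 and 4.49 in RORgt-RORa-KO, 3.50 and 3.55 in RORgt-Tbet-KO, 3.87 and 3.46 in RORgt-KO, and 6.48, 6.76 and 6.26 in Control (chr1:105786192-105786397). The change from Control was −1.95 in RORgt-RORa-KO (SE 0.35, limma adjusted p = 9.41e-05). It was −2.98 in RORgt-Tbet-KO and −2.84 in RORgt-KO, where the rule and the split fixed the direction. Slc25a1, which encodes the mitochondrial citrate carrier, had another of the 6, and 2 had no gene within 50 kb.

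**Figure D5:**
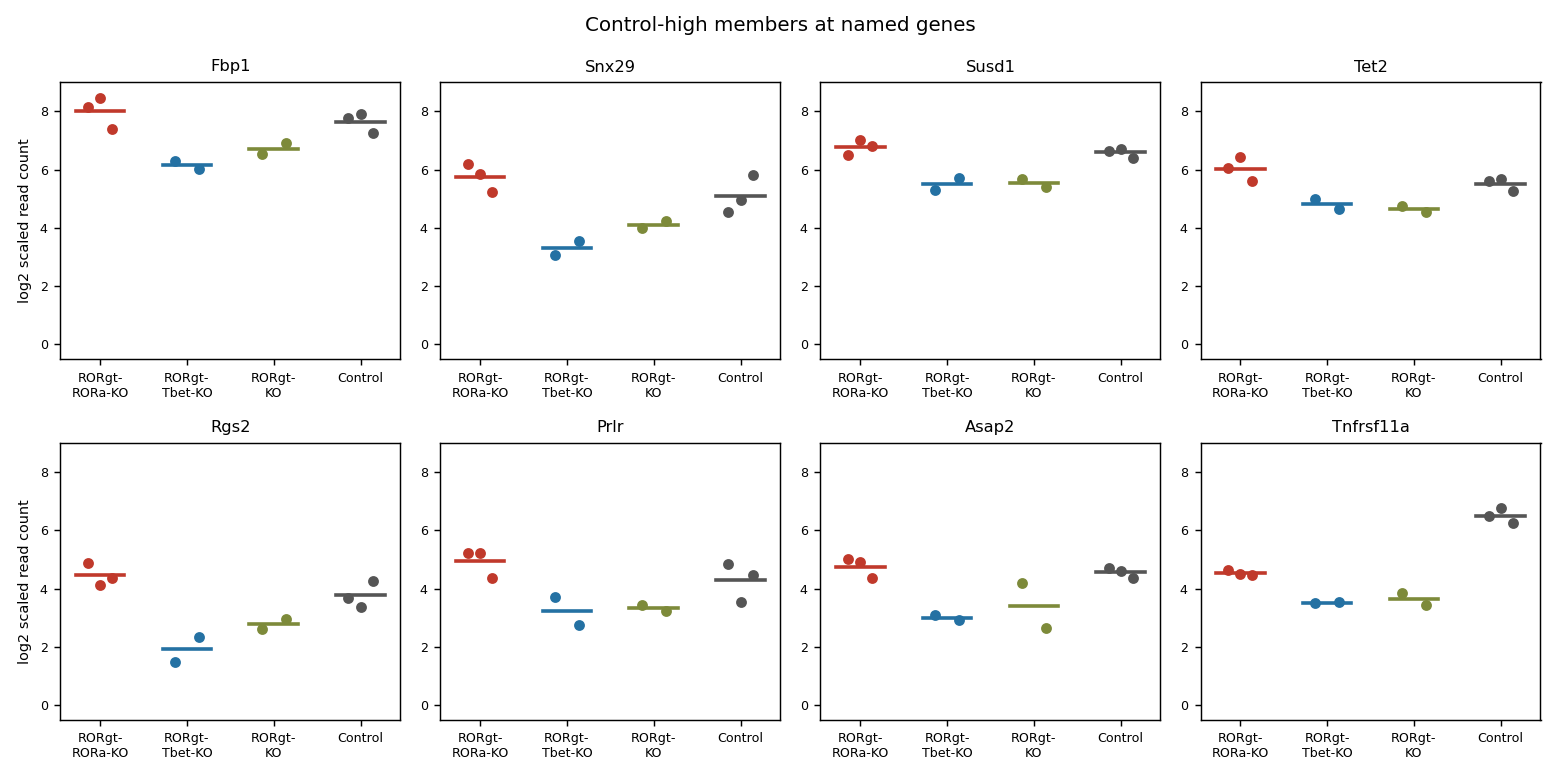
Points give the log2 scaled read count in each library and lines the group means for the Control-high member with the largest gap at each of 8 genes. Control lies near RORgt-RORa-KO at Fbp1, Susd1 and Asap2, above both RORgt-Tbet-KO and RORgt-KO, and at Tnfrsf11a Control lies above all 3 knockouts.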

How the data were processed

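Per the submitters' processing notes, the tools were Trim Galore 0.62, Bowtie2 2.3.5.1, SAMtools and MACS2, and the build was GRCm38. The sources used here do not say whether peaks were called per sample or pooled. The authors deposited 1 table of 36262 peaks by 10 libraries in log2 scaled read counts. Within a library, values of peaks with reads were multiples of a single step (100% of them whole at a tolerance of 0.01) and empty peaks held 0.9 of that step, so the counts of reads behind the deposited values were recovered by division; they were used for depth, filters and voom. Reads in peaks ranged from 2271585 to 5047436 per library. The 11 Y peaks, with 525 to 1411 reads, were left out.

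The deposited log2 values entered limma 3.58.1 (R 4.3.3) with a trend of variance on mean; the fit used all 4 groups, with 22.5 prior and 6 residual degrees of freedom, and p-values were adjusted by Benjamini-Hochberg over 36251 peaks at 0.05; SE is the moderated standard error. The procedure was also run on simulated counts with the same dispersion at every peak. Those peaks were not selected by the rule, so that run gives no assurance about the members' p-values. The contrasts of RORgt-RORa-KO with RORgt-KO and RORgt-Tbet-KO chose the members, so no test of them is reported. Genes and promoter windows came from RefSeq on GRCm38.p6, the same build; 21045 windows of 17274 protein-coding genes were searched. The 20 lists held 302 genes.

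Members, lists and tests were chosen with earlier results of these data known. Named peaks were the 10 members with the largest gap in each set split by Control, with at least 20 reads on average in RORgt-RORa-KO and 1 per gene, up to 3 genes per list, the 5 genes with most members, and the peaks at the limit of 0.8; some peaks are not reported here. They are described by each library's value, so intervals of counting error are not given. Alternatives covered scaling, reads added, a read filter, other gaps, voom, the trend, the groups in the fit, a replicate block and leaving out each library. Cyclic loess, thinning and a closer look at RORgt-RORa-KO replicate 3 were added after seeing the data. Figures were drawn with matplotlib 3.10.9. A sequence of the peaks themselves was not used here.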

Additional observations from a re-analysis of the deposited data

How the results depend on the processing

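The number of members (678, with 586 Control-low and 92 Control-high) was 397, 360 and 37 among peaks averaging at least 20 reads, 1176, 1019 and 157 at a gap of 0.6, and 325, 280 and 45 at a gap of 1. Scaling moved the count less: quantile normalisation gave 605, median centring 545, 2 added reads 538, thinning 720 and cyclic loess 486, with 54 Control-high under cyclic loess. The peaks themselves changed more than the counts. Of the 678 members, 545 were chosen again under quantile normalisation, 486 under thinning, 451 under cyclic loess and 460 without RORgt-RORa-KO replicate 2. Of the 92 Control-high members, 60 stayed so under quantile normalisation, 49 under cyclic loess and 44 under thinning. Leaving out 1 library gave 607 to 1462 members, 525 to 1166 Control-low and 82 to 296 Control-high; without RORgt-RORa-KO replicate 3 they were 1462, 1166 and 296, and without RORgt-KO replicate 1 or 2 Control-high numbered 190 and 144. The cause of these moves was not tested.

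Members called higher in RORgt-RORa-KO than Control numbered 364 to 428 over the left-out libraries. Those counts for RORgt-Tbet-KO against Control were 15 to 69 higher and 20 to 75 lower, for RORgt-KO against Control 21 to 95 higher and 9 to 28 lower, and for RORgt-Tbet-KO against RORgt-KO 1 to 25 lower. The read filter left 38 lower in RORgt-Tbet-KO and 11 lower in RORgt-KO against Control, for which fewer peaks were tested. With only the groups compared in the fit, 44 were higher in RORgt-KO than Control and 49 lower in RORgt-Tbet-KO than RORgt-KO, and without the trend 3 were lower in RORgt-Tbet-KO than RORgt-KO; the cause was not tested. A gene end of 2 kb held 8.26% of members.

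Deviations from group means correlated at −0.121 to 0.143 for libraries of the same replicate number and −0.136 to 0.136 for other numbers. In groups of 2 libraries the deviations mirror each other, so these ranges cannot decide whether replicate numbers pair the libraries. With the replicate block, 439 members were higher in RORgt-RORa-KO than Control, 52 higher and 92 lower in RORgt-Tbet-KO, 84 higher and 34 lower in RORgt-KO, and 29 lower in RORgt-Tbet-KO than RORgt-KO. Of 53 named peaks, 35 passed against Control in RORgt-RORa-KO, 29 of them in every setting that gave a value (20 settings for 24 of the 29 and 19 for 5). None of the 53 changed direction where it passed in the main or the other setting. The rule and the split fixed that direction at Control-low peaks in the main setting. With 13 to 44.5 reads in the median member, depth limits what single members can show.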

Other observations

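Genes of the interferon response were a group noticed after the values were seen. Among 138 peaks of 52 genes picked by symbol, 11 (7.97%, against 1.87% of all peaks) were members, at Gbp7, Gvin1, Ifi203, Ifi47 (2), Ifitm3, Irf1, Irf8, Irgm2, Oas1f and Sp100, and 10 of the 11 were Control-low and higher in RORgt-RORa-KO than in Control. Over the 138 peaks, 32 rose and 11 fell in RORgt-RORa-KO against Control, 20 rose and 6 fell in RORgt-Tbet-KO, and 10 rose and 3 fell in RORgt-KO (limma, adjusted over all peaks). As shares these were 23.2% and 7.97% in RORgt-RORa-KO (15.1% and 16.1% over all peaks), 14.5% and 4.35% in RORgt-Tbet-KO (11.3% and 11.3%), and 7.25% and 2.17% in RORgt-KO (5.19% and 7.12%). The genes were picked after the members were seen, so these shares are a description only. Gbp7 encodes a guanylate-binding protein of cell-autonomous immunity. Its member at a gene end (chr3:142550088-142550658) read 7.42, 8.0 and 7.29 in RORgt-RORa-KO, 5.56 and 5.53 in RORgt-Tbet-KO, 6.55 and 6.08 in RORgt-KO, and 5.46, 5.69 and 4.58 in Control, a difference from Control of 2.32 in RORgt-RORa-KO (SE 0.27, limma adjusted p = 1.46e-07). Irf1, a transcription factor gene of the same response, had a member 31787 bp away (chr11:53810161-53810608) at 7.13, 6.72 and 6.82 in RORgt-RORa-KO, 5.53 and 5.30 in RORgt-Tbet-KO, 6.29 and 5.74 in RORgt-KO, and 4.62, 4.76 and 5.20 in Control (2.03 above Control in RORgt-RORa-KO, SE 0.26, limma adjusted p = 9.32e-07).

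Members at Tyrobp and Cst7 were also noticed after the values were seen. Tyrobp encodes the adaptor DAP12 of activating natural killer receptors. Its member 2440 bp away (chr7:30411024-30411342) read 6.32, 6.10 and 6.53 in RORgt-RORa-KO, 4.44 and 4.39 in RORgt-Tbet-KO, 4.99 and 5.41 in RORgt-KO, and 1.96, 2.37 and 4.26 in Control. Cst7 encodes cystatin F, an inhibitor of granzyme-activating cathepsins. Its member (chr2:150567514-150567762) read 6.84, 7.31 and 6.17 in RORgt-RORa-KO, 5.79 and 5.17 in RORgt-Tbet-KO, 5.14 and 5.29 in RORgt-KO, and 4.07, 4.37 and 4.38 in Control. Against Control in RORgt-RORa-KO they were higher by 3.45 (SE 0.45, limma adjusted p = 8.62e-07) and 2.50 (SE 0.31, limma adjusted p = 4.34e-07). The Tyrobp member also passed as higher in RORgt-Tbet-KO (1.55, limma adjusted p = 0.0255) and RORgt-KO (2.33, limma adjusted p = 0.00208). The Cst7 member passed in RORgt-Tbet-KO (1.21, limma adjusted p = 0.0122) and not in RORgt-KO (0.94, limma adjusted p = 0.0748).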
